A study of Homo sapiens with 6 samples.

Results

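The mitochondrial ribosome genes measured here were the 76 genes whose symbol in the deposited annotation is MRPL or MRPS followed by a number, out of 25141 genes with a symbol. By name, 47 of them belong to the large subunit (MRPL) and 29 to the small subunit (MRPS). Where several transcript clusters (sets of probes for a transcribed locus) carried a symbol, the cluster with the highest mean over all arrays was kept, so that 83 clusters gave 76 genes. The choice used no comparison between the groups. RNA came from A549, an established human lung adenocarcinoma cell line. All 6 cultures stably carried a lentiviral shRNA, and they were kept in 10% serum until some 70% confluent. In 3 of them the shRNA was a control and in the other 3 it targeted S100A4, a small calcium-binding protein associated with metastasis. The labels name 1 shRNA per group and call the arrays biological replicates, so the p-values cover the spread between these arrays and not that between shRNAs or independently made lines. The stated aim of the series was to find molecules downstream of S100A4 that bear on mitochondrial metabolism and invasion.

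The mitochondrial ribosome is the machine inside mitochondria that translates the messenger RNAs of the mitochondrial genome, which encode core subunits of the respiratory chain and of ATP synthase. Its RNAs come from the mitochondrial genome, whereas all of its proteins are encoded in the nucleus, made in the cytosol and imported. The small subunit binds the messenger RNA and decodes it, and the large subunit joins amino acids and releases the growing chain at the inner membrane. Many of its proteins have bacterial counterparts, and the others were added in the mitochondrial lineage. Promoters of nuclear genes for mitochondrial proteins are known to be bound by NRF1, by GABP (an ETS-family factor, also called NRF2) and by YY1.

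S100A4 itself read 7.57, 7.12 and 7.18 in the control cultures and 5.74, 5.51 and 5.44 with S100A4 shRNA (log2 signal). It was 3.32-fold lower with its shRNA (log2 fold -1.73, SE 0.13, limma adjusted p = 0.000453), and the groups did not overlap. An exact two-sided permutation test of the 6 values gave p = 0.1, the smallest p that 3 arrays against 3 allow. Of all genes, 11.6% were called at an adjusted p under 0.05 by limma with Benjamini-Hochberg adjustment over all genes, 6.08% higher and 5.49% lower with S100A4 shRNA. Array medians over all genes lay between 5.48 and 5.52. The array's positive housekeeping controls had medians of 13.61, 13.53 and 13.50 in the control cultures and of 13.34, 13.18 and 13.43 with S100A4 shRNA, so every S100A4 shRNA array was lower than every control array. This was also so for the negative controls, with medians of 4.27, 4.23 and 4.24 against 4.19, 4.18 and 4.19. Of 5 epithelial markers, KRT8 and KRT18 were called lower, KRT19 and CDH1 higher, and EPCAM was not called. All 15 markers of fibroblasts, leukocytes and endothelial cells had group means between 3.24 and 5.01, and none was called.

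Most mitochondrial ribosome genes moved little. Limma called 8 of the 76 lower with S100A4 shRNA (10.5%, against 5.49% of all genes) and 2 higher (2.63%, against 6.08%), and 66 were not called. The 8 that fell were MRPS9, MRPS18B and MRPS34 of the small subunit and MRPL3, MRPL15, MRPL17, MRPL18 and MRPL35 of the large subunit, and the 2 that rose were MRPL33 and MRPL42 of the large subunit. Every called member changed by less than 1.5-fold. Over all members the log2 fold ran from -0.55 to 0.48 with a median of -0.084, against a median of -0.034 over all genes. In 51 members (67.1%) the log2 fold was below 0, as it was in 58.7% of all genes. The control arrays lay wholly above the S100A4 shRNA arrays in 26 members (34.2%), and this held for 18.5% of all genes. The opposite order, with the S100A4 shRNA arrays wholly above, was found in 3 members (3.95%), namely MRPL33, MRPL42 and MRPL14, and in 14.3% of all genes. Without regard to direction, 32.8% of all genes did not overlap.

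Signal strength differs between the members and the average gene, and it bears on how often genes are called. The signal of 74 of the 76 members was above the median gene's. Among the 12570 genes above the median signal, 9.11% were called lower and 11.3% higher, and in 21.1% the S100A4 shRNA arrays lay wholly below the control arrays and in 24.1% wholly above. The members' share of lower calls, 10.5%, was near that of well-measured genes. The members' share of higher calls, 2.63%, was below that group's 11.3%. Without overlap, 34.2% of the members were lower and 3.95% higher, against that group's 21.1% and 24.1%. The median log2 fold of these well-measured genes was 0.011, with 47.8% of them below 0, against -0.084 and 67.1% for the members. No test was made of the members as a list, so these shares are descriptions.

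**Figure D1:**
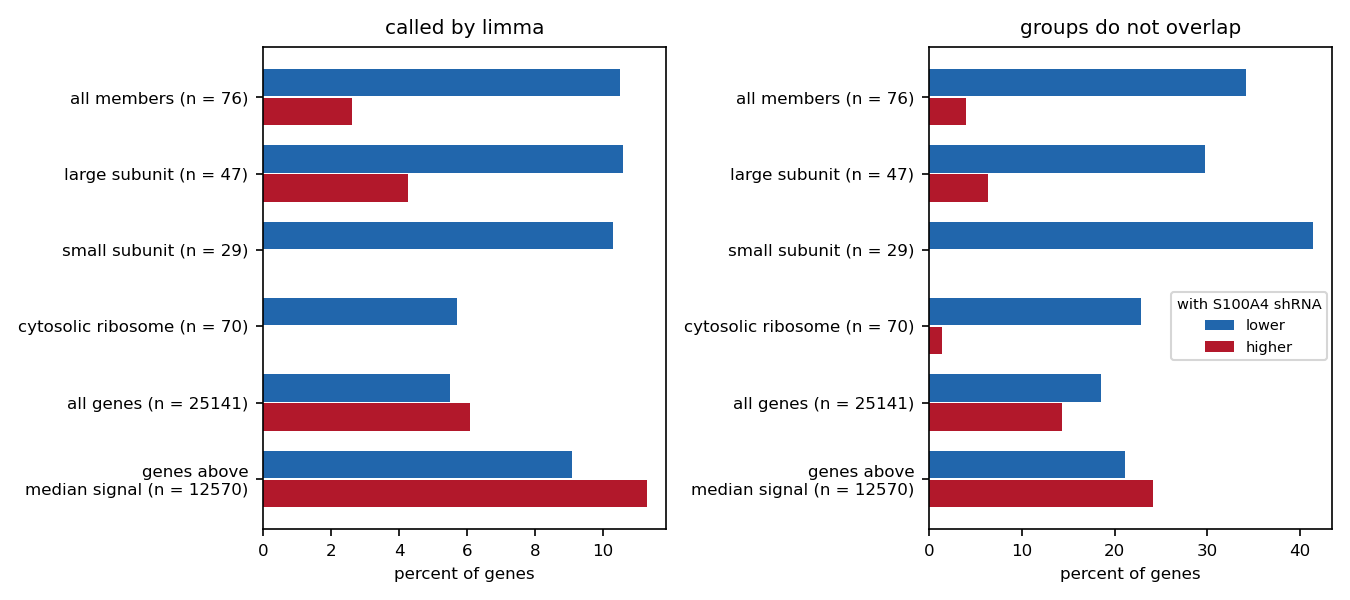
Percent of genes called by limma at an adjusted p under 0.05 (left) and percent in which the 3 arrays of each group do not overlap (right), lower (blue) or higher (red) with S100A4 shRNA. Lower calls make up 10.5% of the 76 members and 9.11% of genes above the median signal, and higher calls 2.63% and 11.3%.

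In the small subunit, MRPS9, MRPS34 and MRPS18B fell and no member rose. Both subunits had about the same share of lower calls, 3 of 29 (10.3%) in the small and 5 of 47 (10.6%) in the large. The small subunit's log2 folds had a median of -0.112, with 22 of 29 (75.9%) below 0. In the large subunit the median was -0.024, with 29 of 47 (61.7%) below 0. The arrays of the 2 groups did not overlap and were lower with S100A4 shRNA in 12 small subunit members (41.4%) and 14 large subunit members (29.8%). These shares stand beside 18.5% of all genes and 21.1% of genes above the median signal. In the authors' deposited table the order of the medians was the opposite, -0.04 in the large and -0.004 in the small subunit, with 59.6% and 58.6% of members below 0. The difference between the subunits was not tested, since members of a list are not replicates.

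MRPS9 (uS9m) is the counterpart of bacterial S9, a protein of the head of the small subunit. It read 9.40, 9.26 and 9.39 in the control cultures and 8.84, 8.76 and 8.80 with S100A4 shRNA (log2 signal). The groups lay well apart, with the lowest control array above the highest S100A4 shRNA array. Its log2 fold was -0.55 (SE 0.07, limma adjusted p = 0.00234). MRPS34 (mS34), a mitochondria-specific protein needed for a stable small subunit, read 11.34, 11.20 and 11.42 in the control cultures and 10.84, 10.92 and 10.76 with S100A4 shRNA. Here too the groups did not overlap, and the log2 fold was -0.48 (SE 0.08, limma adjusted p = 0.00864). Both genes stayed called when any single array was left out.

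MRPS18B (mS40) is one of a trio of human proteins related to bacterial S18. It read 10.22, 10.18 and 10.16 in the control cultures and 9.83, 9.68 and 9.71 with S100A4 shRNA, without overlap. The log2 fold was -0.45 (SE 0.06, limma adjusted p = 0.00477), and the call stood without any single array. MRPS18B lies in the major histocompatibility region of chromosome 6, and the array holds 7 clusters for it. The 6 clusters on alternate haplotypes, 1 of which was kept, had the same values to 2 decimals, so they are not separate measurements. The cluster on the primary assembly went from a mean of 10.02 to 9.61, a log2 difference of -0.41, again without overlap. The related MRPS18A, which sits in the large subunit (mL66), had a log2 fold of 0.12 with a 95% interval from -0.17 to 0.41. MRPS18C (bS18m), which sits in the small subunit, had -0.11 with an interval from -0.33 to 0.10. Neither was called (limma adjusted p = 0.598 and 0.485), and the intervals of both leave room for a change in either direction.

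In the large subunit, the 5 members that fell are all counterparts of bacterial proteins. MRPL35 (bL35m) read 9.44, 9.43 and 9.46 in the control cultures and 9.09, 8.91 and 9.13 with S100A4 shRNA. The control arrays were nearly equal and all above the other group. Its log2 fold was -0.40 (SE 0.07, limma adjusted p = 0.0128), and without control replicate 3 the adjusted p was 0.0546. MRPL3 (uL3m), whose bacterial counterpart reaches toward the site where peptide bonds form, read 11.92, 11.74 and 11.86 in the control cultures and 11.50, 11.50 and 11.53 with S100A4 shRNA. The S100A4 shRNA arrays were close together and all below the controls. The log2 fold was -0.33 (SE 0.07, limma adjusted p = 0.0179), and the call was lost without control replicate 1 or 3 or S100A4 shRNA replicate 1 or 3, with adjusted p up to 0.0732.

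MRPL18 (uL18m) is the counterpart of a bacterial protein that binds 5S ribosomal RNA. It read 8.70, 8.66 and 8.71 in the control cultures and 8.43, 8.21 and 8.40 with S100A4 shRNA, with replicate 2 the lowest. The log2 fold was -0.35 (SE 0.07, limma adjusted p = 0.0246), and the call was lost without any 1 of the control replicates or S100A4 shRNA replicate 3, with adjusted p up to 0.0896. MRPL17 (bL17m) read 8.72, 8.60 and 8.70 against 8.44, 8.24 and 8.41, without overlap and again with S100A4 shRNA replicate 2 the lowest. It fell by 0.30 on the log2 scale (SE 0.07, limma adjusted p = 0.0382), but the call was lost in each fit that left out an array, with adjusted p up to 0.127, and with each array centred on its median (adjusted p = 0.0539). MRPL15 (uL15m) read 8.16, 7.90 and 8.11 in the control cultures and 7.70, 7.72 and 7.74 with S100A4 shRNA, again without overlap. Its log2 fold was -0.33 (SE 0.08, limma adjusted p = 0.0336), and the call stood without control replicate 2 but was lost without any 1 of the other arrays, with adjusted p up to 0.12.

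MRPL33 and MRPL42 went the other way. MRPL42 (mL42), a protein with no bacterial counterpart, read 11.50, 11.32 and 11.23 in the control cultures and 11.84, 11.92 and 11.71 with S100A4 shRNA. All S100A4 shRNA arrays were above all controls, and the log2 fold was 0.48 (SE 0.09, limma adjusted p = 0.0152). The call was lost without control replicate 2 or 3 or S100A4 shRNA replicate 1, with adjusted p up to 0.058. MRPL33 (bL33m), the counterpart of a small protein of the bacterial large subunit, read 8.65, 8.58 and 8.71 in the control cultures and 8.98, 8.96 and 9.11 with S100A4 shRNA. These groups did not overlap either. The log2 fold was 0.37 (SE 0.07, limma adjusted p = 0.0141), and without control replicate 2 or S100A4 shRNA replicate 3 the adjusted p was at most 0.0521. The authors' deposited table gave 0.42 for MRPL33 and 0.35 for MRPL42 on the log2 scale and called neither.

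**Figure D2:**
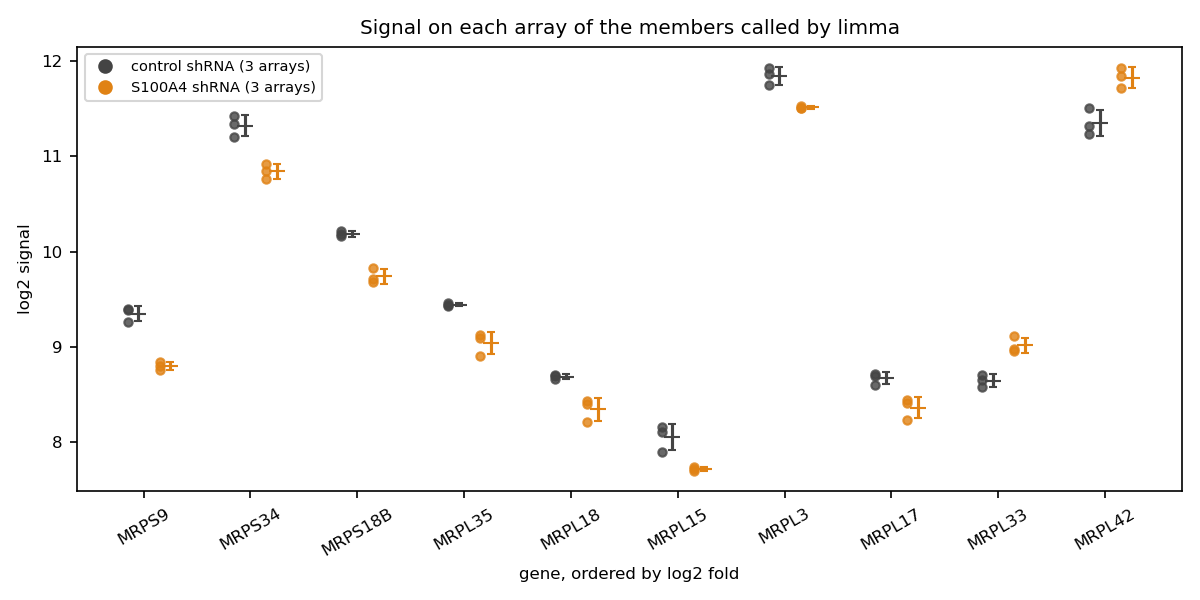
Log2 signal of the 10 called members on each of the 3 control (grey) and 3 S100A4 shRNA (orange) arrays, with the group mean and SD beside the points. In none of the 10 genes do the groups overlap, and only MRPL33 and MRPL42 are higher with S100A4 shRNA.

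For the members that were not called, the intervals bound the change in the kept cluster, given the spread between these arrays. Of these 66 genes, 64 had a 95% interval for the log2 fold that lay within 1.5-fold in both directions. The exceptions were MRPL46, at -0.39 with an interval from -0.66 to -0.12, and MRPL24, at 0.28 with an interval from -0.12 to 0.68. MRPL54 is among the 64, but its signal was below the negative controls, so its interval sets no bound on the gene. In 31 of the 76 members the log2 fold was within 0.1 of 0. This held for 11637 of all 25141 genes and for 4617 of the 12570 above the median signal. The uncalled members nearest to the threshold were lower with S100A4 shRNA in both subunits. MRPS25 (mS25) read 8.44, 8.25 and 8.33 against 7.98, 7.85 and 8.15, without overlap, for a log2 fold of -0.35 (limma adjusted p = 0.0513). MRPS5, the counterpart of a bacterial protein involved in decoding fidelity, had -0.23 (adjusted p = 0.0542) and MRPS22 had -0.18 (adjusted p = 0.112).

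Among uncalled large subunit genes, the smallest p-values belonged to MRPL11, MRPL45 and MRPL46. MRPL11, of the stalk base where translation factors bind, had a log2 fold of -0.28 (limma adjusted p = 0.0545). MRPL45, which anchors the ribosome at the inner membrane next to the exit of the peptide tunnel, had -0.29 (adjusted p = 0.0599), and whether its probes also read its pseudogene MRPL45P2, which has a cluster of its own, was not tested. For MRPL46 the limma adjusted p was 0.0751. MRPL14 was the only uncalled member whose S100A4 shRNA arrays were all above its controls (log2 fold 0.25, limma adjusted p = 0.115).

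**Figure D3:**
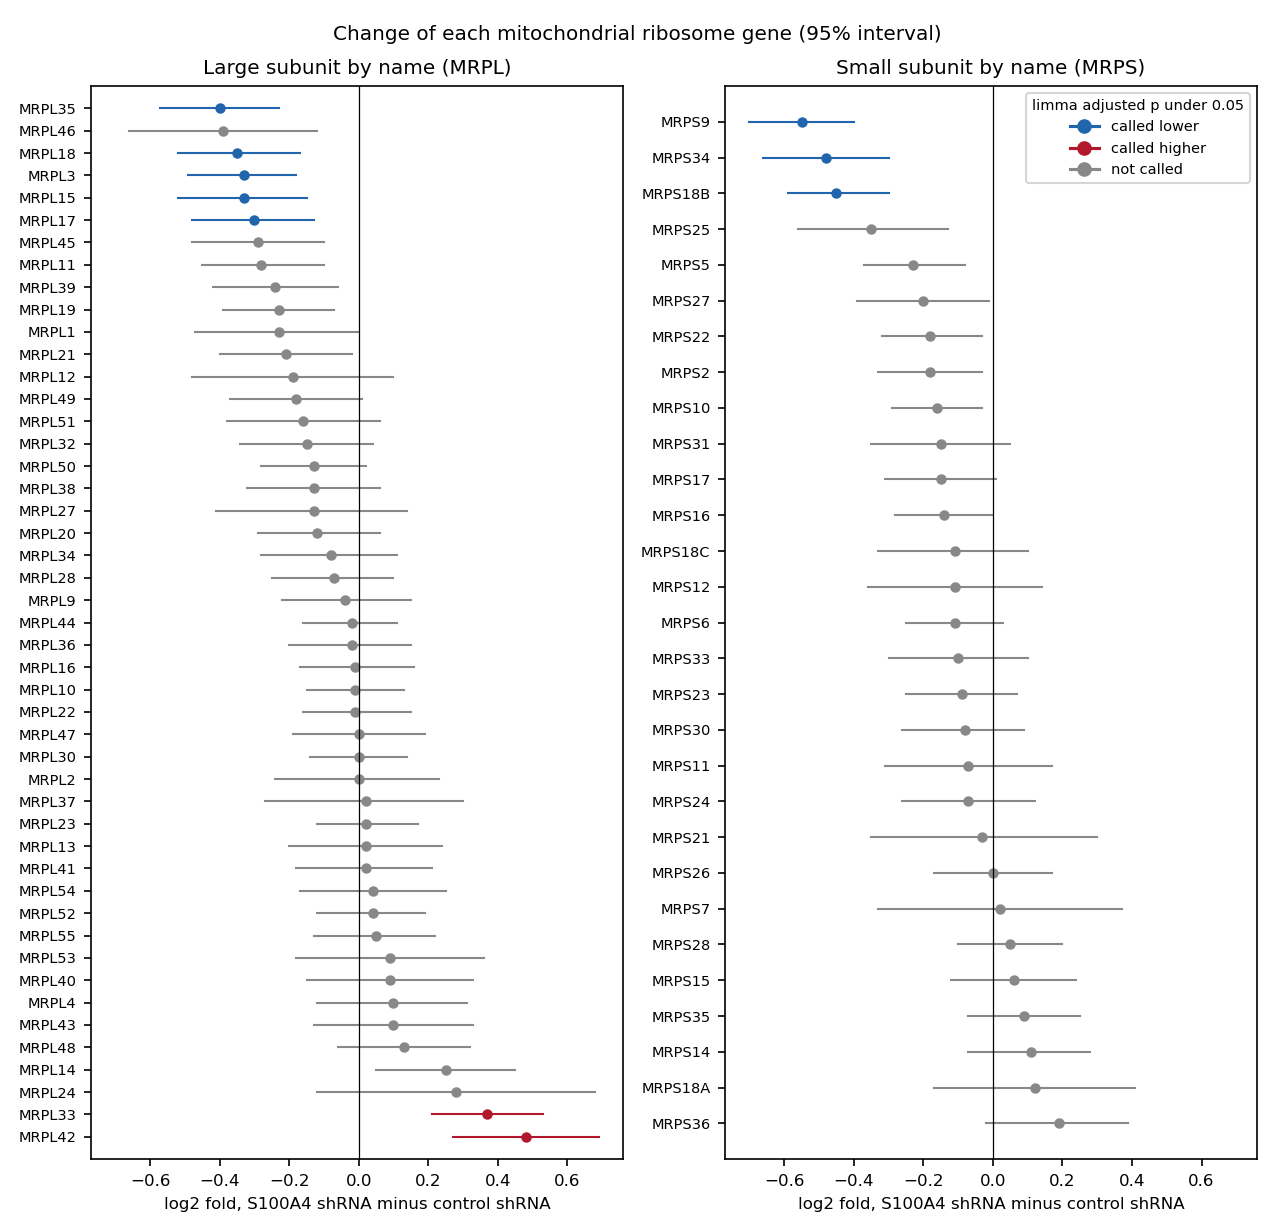
Log2 fold (S100A4 shRNA minus control shRNA) of each of the 76 members with its 95% interval, for large subunit (left) and small subunit (right) names. Called members are blue (lower, 8) or red (higher, 2), and most of the other intervals include 0.

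Signals of different clusters depend on their probes and are not set against each other as abundances, but they show where the array had little to measure. MRPL54 had means of 3.96 in the control group and 4.0 in the other, below the negative controls' array medians of 4.18 to 4.27, so its log2 fold, though counted among the 76, shows no direction and sets no bound on the gene. MRPL34 (5.65 and 5.57), MRPL23 (5.80 and 5.83), MRPS6 (5.48 and 5.37) and MRPS12 (6.08 and 5.96) were also dim, and none was called. Uncalled members with strong signals included MRPS35 (12.09 in the control cultures and 12.19 with S100A4 shRNA), MRPL21 (10.92 and 10.72) and MRPL51 (10.52 and 10.36). MRPS7, with 10.71 ± 0.33 (SD, n = 3) in the control cultures and 10.73 with S100A4 shRNA, varied widely within the control group.

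A few symbols do not match the subunit or the complex in which the protein sits. MRPS30 (mL65) and MRPS18A are large subunit proteins by structure, and MRPS36, which RefSeq names KGD4, is known as a subunit of the oxoglutarate dehydrogenase complex. MRPS30 had a log2 fold of -0.08 (95% interval -0.26 to 0.09) and MRPS36 had 0.19 (95% interval -0.02 to 0.39), neither called (limma adjusted p = 0.528 and 0.238). With the genes placed by known location, 3 of 26 small subunit members were called lower (11.5%), none was called higher, and their median was -0.114. The large subunit then had 49 members, 5 called lower (10.2%) and 2 higher (4.08%), and a median of -0.024. Lower calls made up 5.49% of all genes and 9.11% of those above the median signal, and higher calls 6.08% and 11.3%. For MRPS14 the 2 clusters on the array disagreed in sign, at 0.11 for the kept cluster and -0.30 for the other, and in both the groups overlapped.

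Sorting by ancestry gave similar medians. The 46 members with a bacterial counterpart had a median log2 fold of -0.079, with 6 called lower (13%) and 1 higher. The 27 members specific to mitochondria had a median of -0.086, with 1 called lower (MRPS34, 3.7%) and 1 higher (MRPL42). Lower calls made up 5.49% of all genes and 9.11% of those above the median signal. By name, 9 of the 10 mitochondria-specific members of the small subunit, MRPS30 among them, had a log2 fold below 0, and 8 of the 17 (47.1%) of the large subunit did, with a median of 0.018. The remaining members, MRPL55 (bL31m), MRPS18B and MRPS36, were assigned to neither class. MRPS18B was called lower, and the related MRPS18A was counted with the bacterial counterparts, so the shares depend on these assignments.

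The members as a group read lower on the second S100A4 shRNA array than on any other. Measured from each gene's control mean, the median member stood at 0.051, -0.072 and 0.015 in the control cultures and at -0.051, -0.165 and -0.010 with S100A4 shRNA (log2). The groups overlapped, since control replicate 2 was below S100A4 shRNA replicates 1 and 3. In the small subunit the S100A4 shRNA arrays stood at -0.100, -0.187 and -0.097, all below the control arrays at 0.032, -0.061 and 0.016. In the large subunit they stood at -0.049, -0.113 and 0.015, against 0.059, -0.075 and 0.013, and overlapped. The 70 genes of the cytosolic ribosome followed the same order of arrays, with 0.052, -0.065 and 0.015 in the control cultures and -0.060, -0.140 and -0.002 with S100A4 shRNA. The same array also had the lowest positive housekeeping controls and, narrowly, the lowest negative controls (median 4.18), but the highest median over all genes (5.52). What part this plays in the members' values was not tested. Without S100A4 shRNA replicate 2 the median log2 fold of the members was -0.041 and 8 of the 76 members were called, beside 10.3% of all genes.

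The authors' deposited table, which summarises the same arrays by another route, gave smaller differences for the members. Its p-values, adjusted over the same genes, called 2.12% of all genes and none of the 76 members. At an unadjusted p under 0.05 the authors' deposited table had 12 of the 76 members lower and 2 higher. Over all 25141 genes it had 4578 lower (18.2%) and 2814 higher (11.2%). Among the 12570 genes above the median signal it had 1641 lower and 2617 higher. The median difference of the members there was -0.027, with 45 of 76 (59.2%) below 0. All genes had a median of -0.057 with 63.7% below 0, and genes above the median signal had 0.025 with 43.5% below 0. All 10 called members had the same sign in both summaries. For the members called lower, the authors' deposited table had log2 differences of -0.34 (MRPS34), -0.19 (MRPS9), -0.18 (MRPL17), -0.17 (MRPS18B and MRPL18), -0.16 (MRPL15), -0.12 (MRPL35) and -0.08 (MRPL3).

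**Figure D4:**
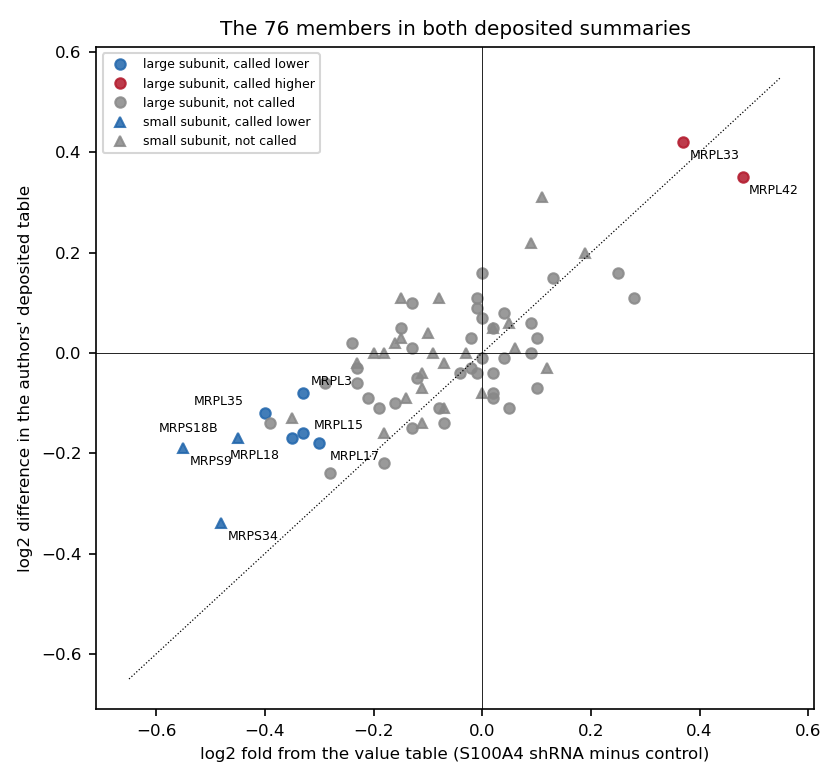
Log2 fold of the 76 members from the value table (x axis) against the log2 difference of the authors' group means (y axis), with the dotted line marking equal values. The 10 called members keep their sign, and 7 of the 8 that fell have a difference of less than 0.2 in size on the y axis.

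Other genes of mitochondrial translation were described from lists of known members. Of the 7 subunits whose symbols fall outside the MRPL and MRPS pattern, none was called. CHCHD1 (mS37) read higher with S100A4 shRNA, from a mean of 7.23 to 7.55 without overlap (limma adjusted p = 0.0517), and PTCD3 (mS39), at the entry of the messenger RNA channel, had a log2 fold of -0.18 (limma adjusted p = 0.075). Of 27 assembly factors, 1 fell (3.7%, against 5.49% of all genes) and 1 rose (3.7%, against 6.08% of all genes). FASTKD2, which binds the large ribosomal RNA of mitochondria, fell by 0.29 on the log2 scale (limma adjusted p = 0.0274) and stayed called in only 1 of the 6 fits without an array, and its difference in the authors' deposited table was 0.00. METTL15, which methylates the small ribosomal RNA, had 0.22 (limma adjusted p = 0.0491) and stayed called in none of these fits, nor with the replicate block (adjusted p = 0.0766), quantile normalization (0.0607) or median centring (0.0599).

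Of 17 translation factors and partners, 3 fell (17.6%, against 5.49% of all genes and 9.11% of those above the median signal) and none rose. The list's median log2 fold was -0.024, with 10 of 17 (58.8%) below 0. In the authors' deposited table its median difference was 0.061, with 5 of 17 (29.4%) below 0. LRPPRC, which stabilises mitochondrial messenger RNAs, went from a mean of 13.47 to 12.97 (log2 fold -0.49, limma adjusted p = 0.00291). MTRF1L, a release factor that ends translation at stop codons, fell by 0.37 on the log2 scale (limma adjusted p = 0.00901). Both stayed called without any single array. MTIF2, the initiation factor that brings the starting transfer RNA, had -0.30 (limma adjusted p = 0.0165), and its call was lost without control replicate 2 or 3 or S100A4 shRNA replicate 1, with adjusted p up to 0.0678. In the authors' deposited table the differences were -0.09 for LRPPRC and -0.03 for both MTRF1L and MTIF2, and none was called there.

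Among all genes, 5.49% were called lower and 6.08% higher, and among those above the median signal 9.11% and 11.3%. Of 22 genes for the enzymes that charge mitochondrial transfer RNAs, 1 fell (4.55%) and none rose. This was KARS1, which encodes both the cytosolic and the mitochondrial lysyl enzyme. Its mean went from 12.06 to 11.59 (log2 fold -0.46, limma adjusted p = 0.0032), and it stayed called without any single array, while the authors' deposited table had a difference of -0.08. Among the 70 cytosolic ribosomal protein genes, 97.1% of them above the median signal, 4 were called lower (5.71%, against 5.49% and 9.11%) and none higher. They included RPS19 (log2 fold -0.26), RPS26 (-0.33) and RPL35A (-0.30), with limma adjusted p between 0.0372 and 0.05. The calls of RPS19 and RPL35A were lost in every fit that left out an array, and that of RPS26 in 5 of 6. With the replicate block the adjusted p was 0.0621 for RPS19 and 0.07 for RPS26. With median centring it was 0.0539 for RPS26 and 0.0672 for RPL35A. Their list's median log2 fold was -0.071, with 77.1% below 0, beside -0.084 and 67.1% for the mitochondrial ribosome genes.

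None of the 10 factors known to act at promoters of these genes was called. The list's median log2 fold was -0.153, with 8 of 10 (80%) below 0, against 58.7% of all genes. In 6 (60%) the S100A4 shRNA arrays lay wholly below the controls, and in none wholly above. Wholly below held for 18.5% of all genes and 21.1% of those above the median signal. In the authors' deposited table the list's median was -0.074, beside -0.057 over all genes. Nearest to the threshold was GABPA, the DNA-binding subunit of GABP, at -0.26 on the log2 scale (limma adjusted p = 0.0539). Its partner GABPB1 followed with -0.20 (limma adjusted p = 0.0762). In the authors' deposited table GABPB1 had a difference of 0.10, the opposite sign. NRF1 had a log2 fold of 0.00, and YY1 had -0.17 (limma adjusted p = 0.149).

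Promoter sequences of the members were searched for known motifs. RefSeq promoters on GRCh38.p14, from 250 bases before to 50 after the start, were matched for 68 members and for 14838 measured protein-coding genes. No entry was matched for MRPL2, MRPL10, MRPL13, MRPL15, MRPL21, MRPL23, MRPL35 and MRPS28. The 150 bases before the start are printed for 4 members that fell and 1 that rose, chosen because this stretch holds an ETS or NRF1 motif match. Capitals mark matches on either strand. The ETS motif was searched as CCGGAAG and the NRF1 motif as GCGCANGCG, where N is any base. The NFY motif was CCAAT. For SP1 the letters were GGGCGG.
MRPS9: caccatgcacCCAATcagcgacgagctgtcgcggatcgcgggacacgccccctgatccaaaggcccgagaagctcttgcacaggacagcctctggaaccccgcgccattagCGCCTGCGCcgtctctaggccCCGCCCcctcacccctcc
MRPS34: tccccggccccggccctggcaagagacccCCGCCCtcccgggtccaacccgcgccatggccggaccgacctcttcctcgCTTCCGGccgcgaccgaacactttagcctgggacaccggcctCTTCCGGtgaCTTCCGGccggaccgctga
MRPL17: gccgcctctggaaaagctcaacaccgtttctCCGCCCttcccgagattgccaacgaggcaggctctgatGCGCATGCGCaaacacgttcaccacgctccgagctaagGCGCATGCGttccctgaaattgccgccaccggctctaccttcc
MRPL3: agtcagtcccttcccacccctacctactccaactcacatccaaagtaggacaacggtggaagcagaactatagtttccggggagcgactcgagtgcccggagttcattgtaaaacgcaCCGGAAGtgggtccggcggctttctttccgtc
MRPL33: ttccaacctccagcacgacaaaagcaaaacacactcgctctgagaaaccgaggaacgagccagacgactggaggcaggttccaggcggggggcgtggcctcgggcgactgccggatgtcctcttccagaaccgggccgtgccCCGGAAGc
In the same order these are chr2:105037919-105038068 on the plus strand, chr16:1773135-1773284 on the minus strand, chr11:6683341-6683490 on the minus strand, chr3:131502972-131503121 on the minus strand and chr2:27771569-27771718 on the plus strand, each read toward its gene. The stretch before MRPS34 holds 3 ETS matches, those before MRPL3 and MRPL33 hold 1 each, and those before MRPS9 and MRPL17 hold NRF1 matches, which in MRPL17 lie in 2 separate places. These stretches were chosen for their matches, so they give no comparison of genes that fell with genes that rose. MRPL42, the other member that rose, had no ETS match in its searched window.

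Over the whole window of 300 bases, the ETS motif was found in 29 of 68 members (42.6%), against 16.9% of the measured protein-coding genes. The YY1 motif AAGATGGCG was found in 13 members (19.1%), against 3.34%. The NRF1 motif was found in 13 members (19.1%, against 12.9%) and the E-box CACGTG in 10 (14.7%, against 11%). NFY matches stood in 33.8% of members against 42.5%, and SP1 matches in 61.8% against 65.8%. The comparison genes were not limited to those above the median signal, where 74 of the 76 members lie. None of these motifs contains another, and a match is a description of the letters and not of binding.

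The ETS and YY1 shares were close in both subunits. The ETS motif was in 17 of 40 large subunit promoters (42.5%) and 12 of 28 small subunit promoters (42.9%). It was in 25 of the 60 uncalled members with a promoter (41.7%) and in 3 of the 6 called lower. The YY1 motif was in 8 of 40 large subunit promoters and 5 of 28 small subunit promoters. The NRF1 motif was in 10 large subunit and 3 small subunit promoters. Among called members the YY1 motif was found in the windows of MRPS18B, which fell, and MRPL42, which rose. No test was made of motif content, since the members were chosen as a family.

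**Figure D5:**
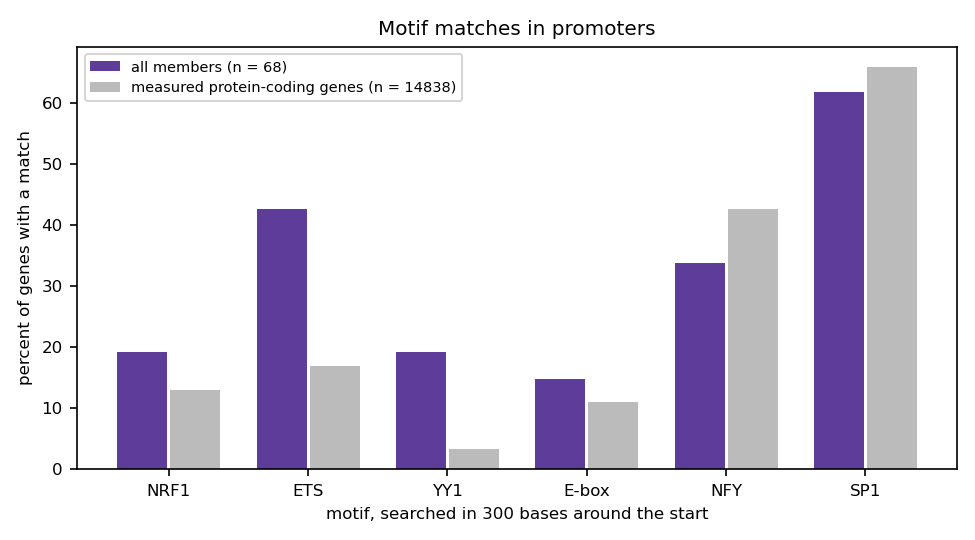
Percent of promoters with at least 1 match to each motif (x axis), for the 68 members with a promoter entry (purple) and the 14838 measured protein-coding genes (grey). The ETS bars stand at 42.6% and 16.9% and the YY1 bars at 19.1% and 3.34%.

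Many members share their promoter region with a neighbour. In 19 of the 68 members (27.9%) a gene on the opposite strand, reading away, started within 1000 bases, which held for 12.5% of the measured protein-coding genes. Of the 17 such partners that were measured, 1 was called higher and 1 lower (5.88% each, against 6.08% and 5.49% of all genes). GGA3, the partner of MRPS7, had a log2 fold of 0.45 (limma adjusted p = 0.031), while MRPS7 itself was at 0.02. NCAPD2, the partner of MRPL51, had -0.32 (limma adjusted p = 0.0469), and MRPL51 was not called. PPP1R10 starts 597 bases from MRPS18B, which fell, and had a log2 fold of -0.15 (limma adjusted p = 0.219) with arrays all below the controls. MRPL46 and MRPS11 face each other across 320 bases, with log2 folds of -0.39 and -0.07. MRPS18B was the only called member with a measured partner.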

How the data were processed

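RNA of 6 A549 cultures was measured on whole-transcript arrays, 3 per group. The authors deposited 1 table of log2 signals per feature and array, made with a program not stated in the labels. Its log2 scale was read from the deposited values, which reach 19.93. Per the file headers, another table holds a mean per group, a p-value without adjustment and a ratio. The submitters' processing notes name Partek 6.0. Levels in the 2 files correlate across genes at only r = 0.78, so that table served for symbols and as an alternative.

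Symbols were updated through RefSeq GRCh38.p14, which left 25141 genes, 668 of them with several clusters. The log2 signals were fitted with lmFit and eBayes of limma 3.58.1 (R 4.3.3), two-sided, without a filter on signal, with p-values adjusted over all genes (Benjamini-Hochberg) and called under 0.05. Precision is limited by the number of arrays. Within groups, arrays correlated at r of 0.9966 to 0.9978, and at most 0.0278% of values were identical between arrays. Replicate numbers were not treated as pairs. Culture time is 3 days in one label and 2 days in another.

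The members, lists and tests were chosen with earlier results of these data known. Named were S100A4, called members, uncalled members with the 3 smallest p-values or the 3 highest or 3 lowest signals per subunit, paralogs, members with several clusters or an unclear subunit, and called genes of each list, or the 2 of smallest p where none was called. A gene that this rule names is not reported here. Promoter motifs were cut to at most 9 letters after longer forms had been searched. MRPL14, MRPL24 and the promoter neighbours were named after their values were seen. Alternatives were quantile normalization, median centring, a filter on the lower 50% of genes, eBayes with trend and robust, array weights, a replicate block, leaving out each array, the authors' table, the mean of a gene's clusters, and membership by location or with 7 further subunits.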

Additional observations from a re-analysis of the deposited data

How the results depend on the processing

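Over all genes, 2910 were called (1529 higher, 1381 lower), and leaving out single arrays gave 1539 to 2583 (762 to 1558 higher, 777 to 1025 lower). The authors' deposited table called 532 (262 higher, 270 lower). Of the members, 10 were called, and 4 to 8 without single arrays (0 to 2 higher, 3 to 7 lower; 1 to 5 of the large subunit and 3 to 4 of the small). Quantile normalization and leaving out the lower 50% of genes each called 16 (14 lower), and the authors' deposited table called 0 (0 higher, 0 lower). Calls rose among all genes too, to 14.5% (7.23% lower) with quantile normalization. The filter kept 74 of the members and called 28.2% of the 12570 genes it kept (12.7% lower). MRPL11, MRPL19, MRPL45, MRPL46, MRPS5 and MRPS25 were the members added both by quantile normalization and by the filter. The median log2 fold of the large subunit ranged from -0.094 to -0.013 without single arrays and that of the small from -0.146 to -0.076; in the authors' deposited table they were -0.04 and -0.004, the opposite order. The causes were not tested, beyond the fewer genes tested under the filter and the fewer arrays in the fits without an array.

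With the replicate number as a block, 12 members were called, the 10 and MRPL46 and MRPS25, and 2883 of all genes; METTL15, RPS19 and RPS26 were no longer called (adjusted p = 0.0766, 0.0621 and 0.07). Deviations of same-numbered arrays from their group means correlated at 0.084, 0.166 and -0.009, and those of differently numbered arrays at -0.209 to 0.173. With so few arrays these values cannot decide whether the cultures were paired. The numbers were not read as pairs because the labels do not say that they pair samples.

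None of the 21 called genes that were recomputed (S100A4, the 10 members and 10 list genes) changed sign under these alternatives; the cell type markers and promoter neighbours were not recomputed. Of uncalled genes, without single arrays MRPS7 ranged from -0.17 to 0.12 and MRPS18A from -0.02 to 0.22; MRPL54, below the negative controls, ranged from -0.05 to 0.10, which carries no direction. MRPS7 stood at -0.03 with array weights and MRPS14 at -0.10 as the mean of its clusters. In the authors' deposited table MRPL23 stood at -0.09, MRPS18A at -0.03, MRPS30 at 0.11, PTCD3 at 0.04 and GABPB1 at 0.10. The calls of the members rest on differences of under 1.5-fold between 3 arrays and 3.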
